A study of Mus musculus with 6 samples.

Results

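Chemokines are small secreted proteins that direct the migration of leukocytes, and chemokine receptors are the G protein-coupled receptors that read them. Their expression was described here in polycystic mouse kidneys with and without the microRNA miR-214. The members were the genes of the deposited table whose symbols begin with Ccl, Cxcl, Ccr, Cxcr, Xcl or Xcr and a digit, or with Cx3c. Of 54 such genes, 6 were left out by name (Cxcl13, Cxcr5, Ccl19, Ccl21a, Ccr7 and Cxcr2), which left 48 of the 20138 genes of the table, 32 ligands and 16 receptors.

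Whole frozen kidneys from 6 mice aged 35 days after birth were sequenced. The 3 Pkd2-miR-214-KO mice carried Pkhd1Cre, floxed Pkd2 on both alleles (Pkd2 F/F) and a null allele of miR-214 (miR-214null), and the 3 Pkd2-KO mice carried Pkhd1Cre and Pkd2 F/F alone. Both genotypes thus lack Pkd2, the polycystin-2 gene, where the Pkhd1 promoter drives Cre, mainly in tubule epithelium, so leukocytes and stroma keep it and there is no group with intact Pkd2. The comparison asks how the cystic kidney differs when miR-214 is missing as well.

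The classes of chemokines are named for the spacing of their first cysteines (C or XC, CC, CXC and CX3C), and each receptor class binds ligands of its own class. Inflammatory chemokines are induced by cytokines and recruit monocytes, neutrophils or effector T cells, while homeostatic ones are made steadily and hold cells in place. In cystic kidneys, tubule cells are a known source of chemokines such as CCL2, and macrophages that gather around cysts promote their growth.

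No per-library value was used, so each gene is described by the authors' fitted log2 fold (Pkd2-miR-214-KO over Pkd2-KO), its mean level over all libraries as log2 CPM (counts scaled to library size) and its p-value. A positive fold means a higher level in Pkd2-miR-214-KO, a direction read from the deleted Mir214 (log2 fold -7.62 in the authors' deposited table), which therefore cannot check the labels. Errors are an approximate standard error (SE), found by dividing the absolute fold by the root of the likelihood ratio. Approximate 95% intervals reach 1.96 SE to either side. In bulk tissue, fewer cells of a type cannot be told apart from less RNA per cell. The labels give no sex, and Xist, the RNA of the inactive X chromosome, had a log2 fold of 10.21 ± 2.36 (SE) in the authors' deposited table. By the authors' likelihood ratio test Xist had p = 1.57e-05 and adjusted p = 0.0168, at a mean level of 9.02 log2 CPM. The Y-linked Ddx3y, Eif2s3y, Kdm5d and Uty had log2 folds between -0.66 and -0.14 with SEs from 1.40 to 1.66 in the authors' deposited table. The SEs of Xist and of these Y-linked genes each exceeded those of at least 99.8% of the 500 genes nearest in mean expression. Alb, the albumin gene of liver, had 6.64 ± 2.05 (p = 0.00120, adjusted p = 0.226), with an SE above that of all 500 genes nearest to it in mean expression, in the authors' deposited table. The part of sex and of liver RNA in the folds below was not tested.

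The mature strands of miR-214 and the sites that match them are shown first, because the deleted microRNA acts by pairing its seed (bases 2 to 8, in capitals) with target messages. Both lie on mouse chromosome 1, plus strand, in GRCm38.p6, chr1:162223438-162223459 for the 3p strand and chr1:162223397-162223418 for the 5p strand (sequences from RefSeq).
mmu-miR-214-3p: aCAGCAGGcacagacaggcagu
mmu-miR-214-5p: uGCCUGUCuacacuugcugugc

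All 48 members had a 3' UTR in GENCODE M21, and the longest of each was searched for CCTGCTG, the 7-base complement of the miR-214-3p seed. It was present in 6 members (12.5%, exact binomial 95% interval 4.73% to 25.2%), against 3601 of 16901 genes of the table with a 3' UTR (21.3%). The members' 3' UTRs had a median length of 813.5 bases, against 1041 bases over all 16901 genes. The 6 were Ccl9, Ccl22, Cxcl12, Cxcl16, Ccr4 and Ccr10. Cxcl12 held 4 copies in a 3' UTR of 5188 bases, and the others held 1 copy each. The windows below give the message strand 5' to 3', with the site in capitals and its mm10 position.
Ccl9 (chr11:83575082-83575088, minus strand): tggtggttaagagcaCCTGCTGctcttcca
Ccl22 (chr8:94750298-94750304, plus strand): acccagcatgtttttCCTGCTGcaggcacc
Cxcl12, first copy (chr6:117176691-117176697, plus strand): cctgcagccttcagcCCTGCTGccctgcct
Cxcl12, last copy (chr6:117180528-117180534, plus strand): gggcacctagctgtcCCTGCTGgtcctggg
Cxcl16 (chr11:70455239-70455245, minus strand): ctaggttagctttgaCCTGCTGaccctttg
Ccr4 (chr9:114491737-114491743, minus strand): caagaggttcagagcCCTGCTGggtggagg
Ccr10 (chr11:101173033-101173039, minus strand): gatcccttctaaagtCCTGCTGtgcaaaga

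A site is a match of letters, not a shown target, and the folds of these 6 genes lay on both sides of 0. Ccl9, a CC chemokine of myeloid cells, had the one fold among them with an unadjusted p under 0.05 (0.81 ± 0.30, p = 0.00681, in the authors' deposited table). Cxcl12, with 4 copies, had a log2 fold of 0.19 ± 0.26 and Cxcl16, with 1 copy, -0.04 ± 0.20 in the authors' deposited table. Ccl22 had -0.70 ± 0.73, Ccr4 0.07 ± 0.65 and Ccr10 0.03 ± 1.11 in the authors' deposited table, with intervals on both sides of 0. The 5p strand matched 3 members (GACAGGC in Ccr4, Cxcl12 and Xcr1, 6.25%), against 9.40% of all genes with a 3' UTR.

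No member passed the authors' edgeR likelihood ratio test after Benjamini-Hochberg adjustment over all 20138 genes, where 25 genes (0.124%) had an adjusted p under 0.05 in the authors' deposited table. The smallest adjusted p of a member was 0.213, that of Ccl6. At an unadjusted p under 0.05 there were 7 of 48 members (14.6%), against 970 of all genes (4.82%) in the authors' deposited table. Of the 7, Ccl6, Ccr1, Ccl9 and Cxcr4 had positive folds and Xcl1, Cxcl11 and Cxcl10 negative ones, against 3.1% of all genes in the positive and 1.71% in the negative direction. An unadjusted p under 0.01 was reached by the 4 positive ones, against 1.68% of all genes. The members' median log2 fold was -0.13, with 21 positive and 27 negative, while 49.8% of all genes had positive and 48.2% negative folds around a median of 0 in the authors' deposited table. Ligands (13 positive, 19 negative) had a median of -0.14 and receptors (8 and 8) of -0.04 in the authors' deposited table.

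**Figure D1:**
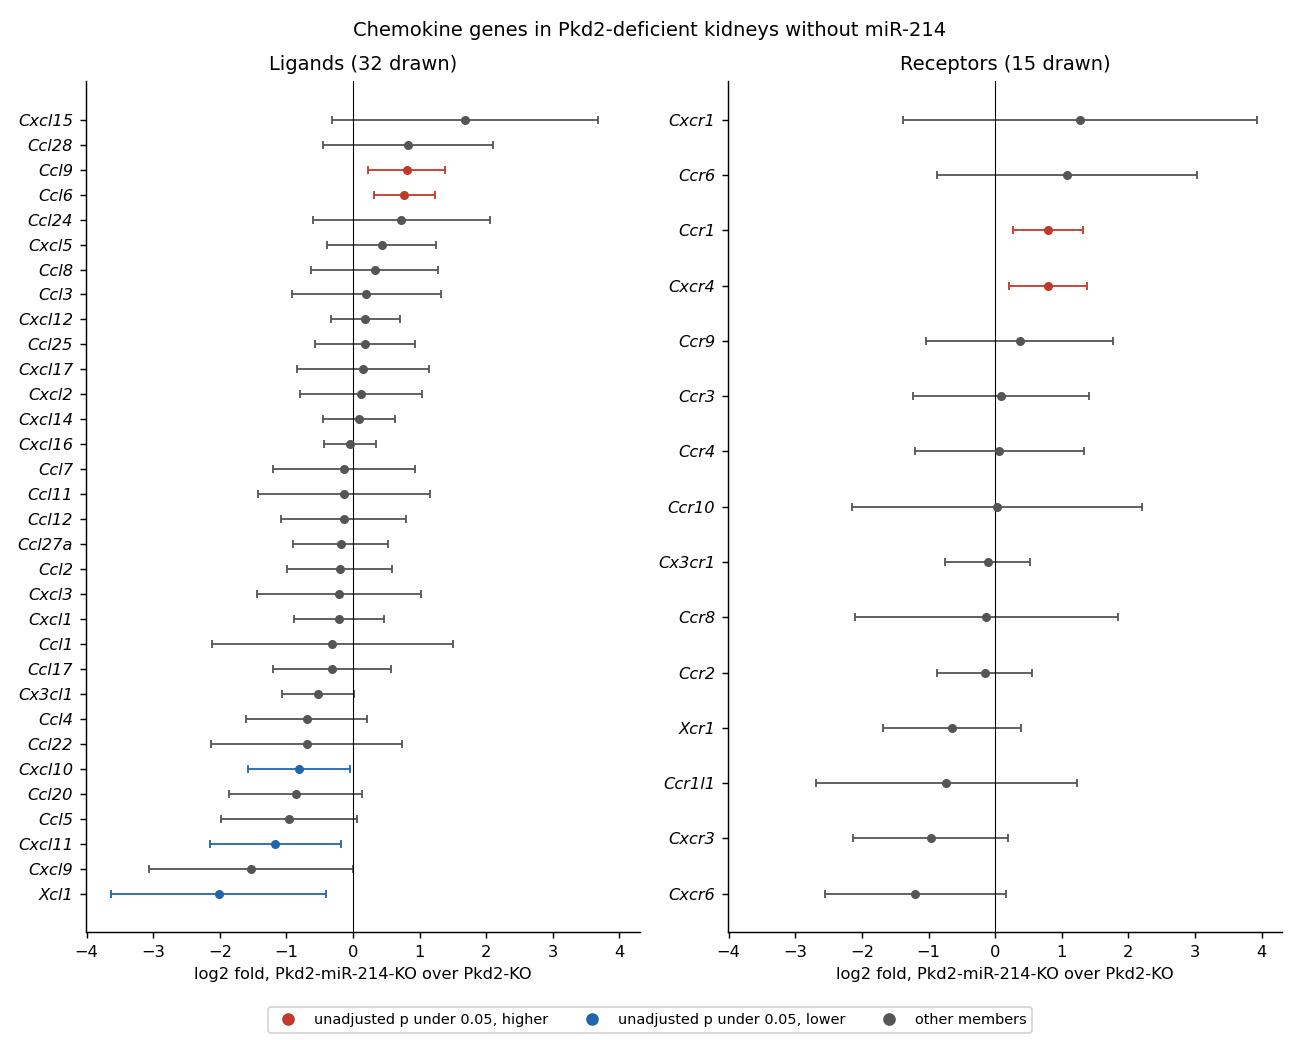
Log2 fold (Pkd2-miR-214-KO over Pkd2-KO, authors' deposited table) of the 32 ligands and 15 of the 16 receptors, sorted by fold. Points are fitted folds, bars approximate 95% intervals, and colours mark an unadjusted p under 0.05: Ccl9, Ccl6, Ccr1 and Cxcr4 lie right of 0 and Cxcl10, Cxcl11 and Xcl1 left of it.

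The precision was modest. Only 10 members had an interval that lay wholly within a 2-fold change in either direction (log2 fold of -1 to 1), among them the ligands Ccl2, Ccl25, Ccl27a, Cxcl1, Cxcl12, Cxcl14 and Cxcl16 and the receptors Ccr2 and Cx3cr1. The intervals of the other 38 members reached a 2-fold change or more in at least one direction. Of the 7 members with a fold beyond 2 in size, Xcl1, Cxcl15, Cxcr1 and Ccr6 had a mean log2 CPM below 0 in the authors' deposited table, where fitted folds rest on few reads. A total of 14 members lay below a log2 CPM of 0, 6 ligands and 8 receptors.

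**Figure D2:**
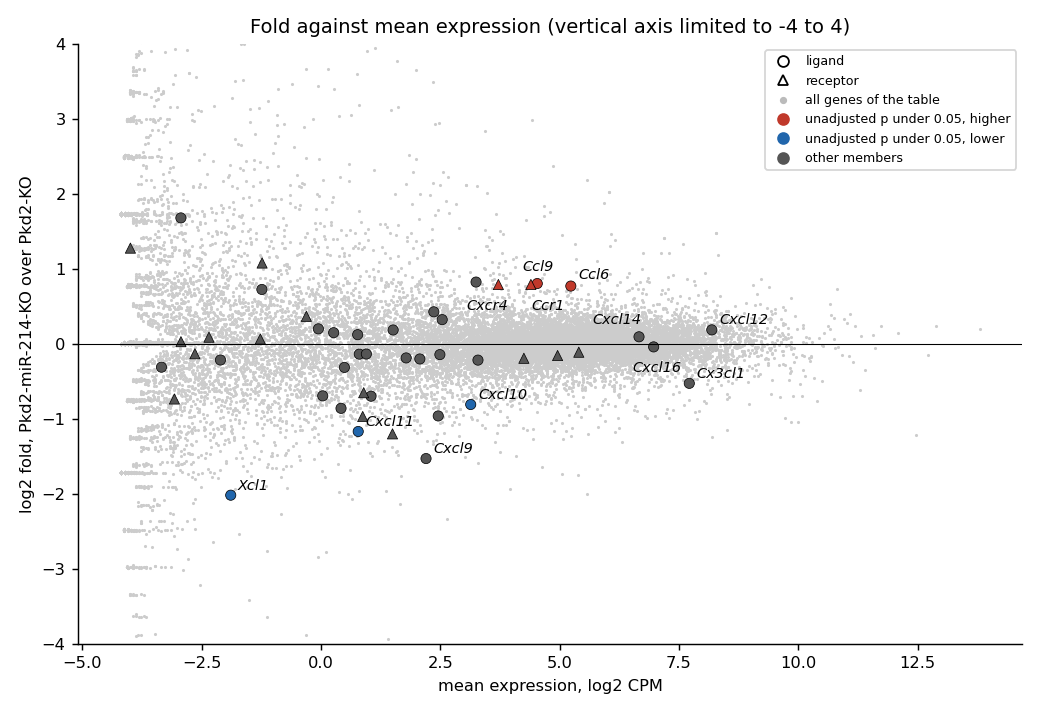
Log2 fold (vertical axis, shown from -4 to 4) against mean log2 CPM (horizontal axis) of all 20138 genes of the authors' deposited table in grey, with ligands as circles and receptors as triangles. The 4 members with positive folds and an unadjusted p under 0.05 lie together between a log2 CPM of 3.71 and 5.23, while Xcl1 lies among genes of few reads at -1.89.

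The ligands with the highest levels were those known as homeostatic or epithelial. Set per kilobase of merged GENCODE exons, Cxcl14, a chemokine of epithelia, averaged 55.4 CPM and Cx3cl1, the membrane-bound ligand also called fractalkine, 53.5 CPM over both genotypes (from the authors' deposited table). Cxcl16, a membrane-bound ligand and scavenger receptor, followed with 41.4 CPM per kilobase and Cxcl12, which retains leukocytes and progenitors through CXCR4, with 35.6 CPM per kilobase. The fifth, Ccl6, averaged 20.9 CPM per kilobase. Without division by exon length the order was Cxcl12 (mean 291 CPM), Cx3cl1 (210), Cxcl16 (125), Cxcl14 (101) and Ccl6 (37.6). Of these abundant ligands, Cx3cl1 had a log2 fold of -0.53 ± 0.28 (interval -1.07 to 0.01, p = 0.0563) in the authors' deposited table. Cxcl14 had 0.09 ± 0.27 (interval -0.44 to 0.63), Cxcl12 0.19 ± 0.26 (-0.32 to 0.70) and Cxcl16 -0.04 ± 0.20 (-0.43 to 0.35) in the authors' deposited table. Cxcl17, a mucosal chemokine, had 0.15 ± 0.50 at a mean level of 0.26 log2 CPM in the authors' deposited table.

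Ccl6 and Ccl9 are CC chemokines of rodents, made chiefly by myeloid cells, and both bind CCR1. Ccl6 had a log2 fold of 0.77 ± 0.23 (p = 0.000969, adjusted p = 0.213) at a mean level of 5.23 log2 CPM in the authors' deposited table. Ccl9 had 0.81 ± 0.30 (p = 0.00681, adjusted p = 0.512) at a mean level of 4.53 log2 CPM in the authors' deposited table. Their receptor gene Ccr1, carried by monocytes, macrophages and neutrophils, had 0.79 ± 0.27 (p = 0.00282, adjusted p = 0.336) at 4.40 in the authors' deposited table. On a linear scale these folds were 1.71 for Ccl6, 1.75 for Ccl9 and 1.73 for Ccr1, and none of the 3 passed after adjustment in the authors' deposited table. Other inflammatory CC ligands did not share that direction as a set. Ccl3, a macrophage inflammatory protein, had 0.20 ± 0.57, Ccl4, its close relative, -0.69 ± 0.46 and Ccl5, which recruits T cells and monocytes, -0.96 ± 0.52 (p = 0.0639) in the authors' deposited table.

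The cells that make these ligands have markers whose folds are set beside them. Of 9 monocyte and macrophage markers found, 5 had positive and 4 negative folds, with a median of 0.07, a range of -0.79 (Ly6c2) to 0.40 (Cd68) and none with an unadjusted p under 0.05 in the authors' deposited table. Of 5 neutrophil markers 4 had positive folds with an unadjusted p under 0.05, among them S100a8 (1.59 ± 0.60) and Mmp8 (1.61 ± 0.59), while the receptor gene Csf3r had -0.16 ± 0.32 in the authors' deposited table. The part of either cell type in the folds of Ccl6, Ccl9 and Ccr1 was not tested.

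The fitted folds of the monocyte axis of CCR2 were small beside their errors. Ccl2, which brings monocytes out of the marrow and into tissue, had a log2 fold of -0.20 ± 0.40 (interval -0.99 to 0.59) and its receptor Ccr2 -0.16 ± 0.36 (-0.87 to 0.56) in the authors' deposited table. The related ligands Ccl7 and Ccl12 had -0.14 ± 0.54 and -0.14 ± 0.48, and Ccl8 had 0.32 ± 0.48, in the authors' deposited table. The intervals of these 3 ligands reached a 2-fold change in at least one direction. Cx3cr1, the fractalkine receptor of resident macrophages and dendritic cells, was the receptor with the highest level, at 9.37 CPM per kilobase. Its log2 fold was -0.11 ± 0.32 (interval -0.75 to 0.53) in the authors' deposited table. Ccr1 (7.43), Cxcr4 (7.26) and Ccr2 (4.59 CPM per kilobase) followed it in level.

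The CXCR3 ligands are induced by interferon-gamma and attract activated T and NK cells. All 3 had negative folds, with a median of -1.17, though GENCODE M21 lists Cxcl11 as a polymorphic pseudogene, which in mouse strains with the disrupted allele gives no full protein. Cxcl9 had a log2 fold of -1.53 ± 0.78 (p just above 0.05) at a mean level of 2.20 log2 CPM in the authors' deposited table. Cxcl10 had -0.81 ± 0.39 (p = 0.0385, adjusted p = 0.962) at 3.14 and Cxcl11 -1.17 ± 0.50 (p = 0.0200, adjusted p = 0.770) at 0.78 in the authors' deposited table. The SE of Cxcl9 exceeded that of 98% of the 500 genes nearest to it in mean expression. The receptor gene Cxcr3 had -0.97 ± 0.59 (p = 0.103) in the authors' deposited table.

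The receptor genes of lymphocytes had folds on both sides of 0. Ccr9 had 0.37 ± 0.72 and Ccr4 0.07 ± 0.65 in the authors' deposited table, and Cxcr4 and Ccr6, described below, also had positive folds. Cxcr6, the receptor of tissue-resident T and NKT cells, had -1.20 ± 0.70 (p = 0.0842) in the authors' deposited table, while its ligand gene Cxcl16 lay at -0.04. Xcl1, the lymphotactin of NK and CD8 T cells, had -2.02 ± 0.82 (p = 0.0144, adjusted p = 0.693), but at a mean of only 0.269 CPM, in the authors' deposited table. Its receptor gene Xcr1, which marks cross-presenting dendritic cells, had -0.65 ± 0.53 in the authors' deposited table. The 10 T and NK cell markers found had 9 negative folds, a median of -0.35 and a range of -1.16 (Nkg7) to 0.25 (Cd2), with none at an unadjusted p under 0.05 in the authors' deposited table. Of 7 dendritic cell markers, Xcr1 among them, 6 had negative folds with a median of -0.65, and Itgax (-0.75 ± 0.37) and Cd209a (-2.07 ± 0.67) had an unadjusted p under 0.05 in the authors' deposited table. The part of these cells in the CXCR3 and lymphotactin folds was not tested.

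Cxcr4, the CXCL12 receptor of most leukocytes, had a log2 fold of 0.79 ± 0.30 (p = 0.00829, adjusted p = 0.552) at a mean level of 3.71 log2 CPM in the authors' deposited table. Its ligand gene Cxcl12 had 0.19 ± 0.26, and Ackr3 (earlier Cxcr7), a scavenging receptor for the same ligand that the rule does not take, -0.36 ± 0.29 in the authors' deposited table. Ccr6, the CCL20 receptor of B cells and T helper 17 cells, had 1.08 ± 0.99 at a mean level of -1.24 log2 CPM and Ccl20 -0.86 ± 0.51 in the authors' deposited table. The 4 B cell markers all had positive folds with an unadjusted p under 0.05, from 1.36 ± 0.56 for Cd79b to 4.23 ± 1.14 for Ms4a1, in the authors' deposited table. None of the 4 passed after adjustment (smallest adjusted p = 0.113), and their part in the folds of Cxcr4 and Ccr6 was not tested.

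The neutrophil-attracting CXC ligands did not share a direction. Cxcl1, a main neutrophil chemoattractant of mice, had a log2 fold of -0.22 ± 0.35 (interval -0.89 to 0.46), Cxcl2 0.12 ± 0.47 and Cxcl5 0.43 ± 0.42 in the authors' deposited table. Cxcl3 (-0.21 ± 0.63) and Cxcl15 (1.68 ± 1.02, p = 0.0984) averaged -2.11 and -2.94 log2 CPM in the authors' deposited table. Cxcr1, at 0.0627 CPM close to the lowest level in the table, had 1.28 ± 1.36 in the authors' deposited table.

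The remaining members were mostly of low level. The CCR4 ligands of dendritic cells, Ccl17 and Ccl22, had -0.31 ± 0.45 and -0.70 ± 0.73, and their receptor Ccr4 0.07 ± 0.65, in the authors' deposited table. The eotaxins Ccl11 and Ccl24, which attract eosinophils through CCR3, had -0.14 ± 0.66 and 0.73 ± 0.68, and Ccr3 0.09 ± 0.68, in the authors' deposited table. The epithelial Ccl28 had 0.82 ± 0.65 with an SE above that of 98.4% of genes of similar level, Ccl27a -0.19 ± 0.37 and their receptor Ccr10 0.03 ± 1.11 in the authors' deposited table. Ccl25, the CCR9 ligand of gut and thymus, had 0.19 ± 0.38 and Ccr9 0.37 ± 0.72 in the authors' deposited table. Ccl1 (-0.31 ± 0.92) and its receptor Ccr8 (-0.13 ± 1.01) averaged -3.34 and -2.64 log2 CPM in the authors' deposited table. Ccr1l1, a close relative of Ccr1, had -0.73 (interval -2.69 to 1.22) at -3.07 log2 CPM in the authors' deposited table.

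Over the 15 ligand and receptor combinations examined, some of which share Cxcl12 or Cxcr3, both genes had positive folds in 4, both negative folds in 7 and opposite signs in 4 (authors' deposited table). Among those with both negative were Cxcl9 with Cxcr3 (-1.53 ± 0.78 and -0.97 ± 0.59), Cxcl10 with Cxcr3 (-0.81 ± 0.39 and -0.97 ± 0.59) and Xcl1 with Xcr1 (-2.02 ± 0.82 and -0.65 ± 0.53) in the authors' deposited table. The receptor's interval included 0 in each of these 3, and so did that of Cxcl9. Ccl20 with Ccr6 had the widest gap, with the ligand at -0.86 and the receptor at 1.08 in the authors' deposited table.

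**Figure D3:**
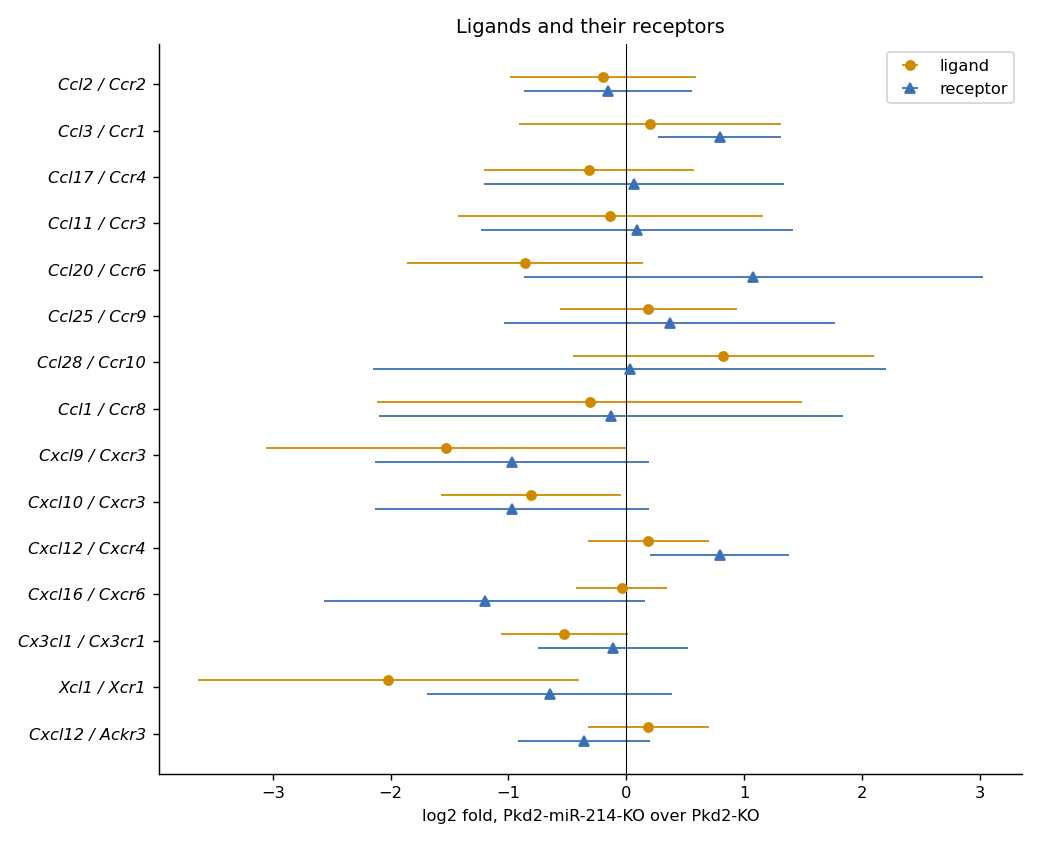
Log2 folds (Pkd2-miR-214-KO over Pkd2-KO, authors' deposited table) of 15 ligand and receptor combinations, ligands as circles and receptors as triangles, with approximate 95% intervals. The Cxcl9, Cxcl10 and Cxcr3 points lie left of 0, those of Ccl3 with Ccr1 and Cxcl12 with Cxcr4 right of it, and most bars cross 0.

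Chemokine genes arose by duplication and lie in clusters, so neighbours were compared (GENCODE M21 on mm10, members less than 1 Mb apart). In all 32 members lay in 7 clusters and 16 stood alone. In the cluster of 5 genes on chromosome 11 (83525778 to 83664683), the adjacent Ccl9 and Ccl6 had log2 folds of 0.81 and 0.77, with Ccl5 at -0.96 on one side and Ccl3 at 0.20 and Ccl4 at -0.69 on the other in the authors' deposited table. The second cluster on that chromosome (82035571 to 82305690), from Ccl2 to Ccl1, had 6 folds between -0.31 and 0.32 in the authors' deposited table. On chromosome 5 the CXCR3 ligands (92321347 to 92365485) had folds of -1.53, -0.81 and -1.17, while the 5 genes from Cxcl5 to Cxcl2 (90759360 to 90905938) had a median of 0.12 in the authors' deposited table. The 3 genes on chromosome 8 (94745590 to 94812036), Ccl22, Cx3cl1 and Ccl17, had negative folds from -0.70 to -0.31 in the authors' deposited table. In the receptor cluster on chromosome 9 from Ccr9 onward, Ccr1 at 0.79 was the one of 8 with an unadjusted p under 0.05, and its neighbour Xcr1 had -0.65 in the authors' deposited table.

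**Figure D4:**
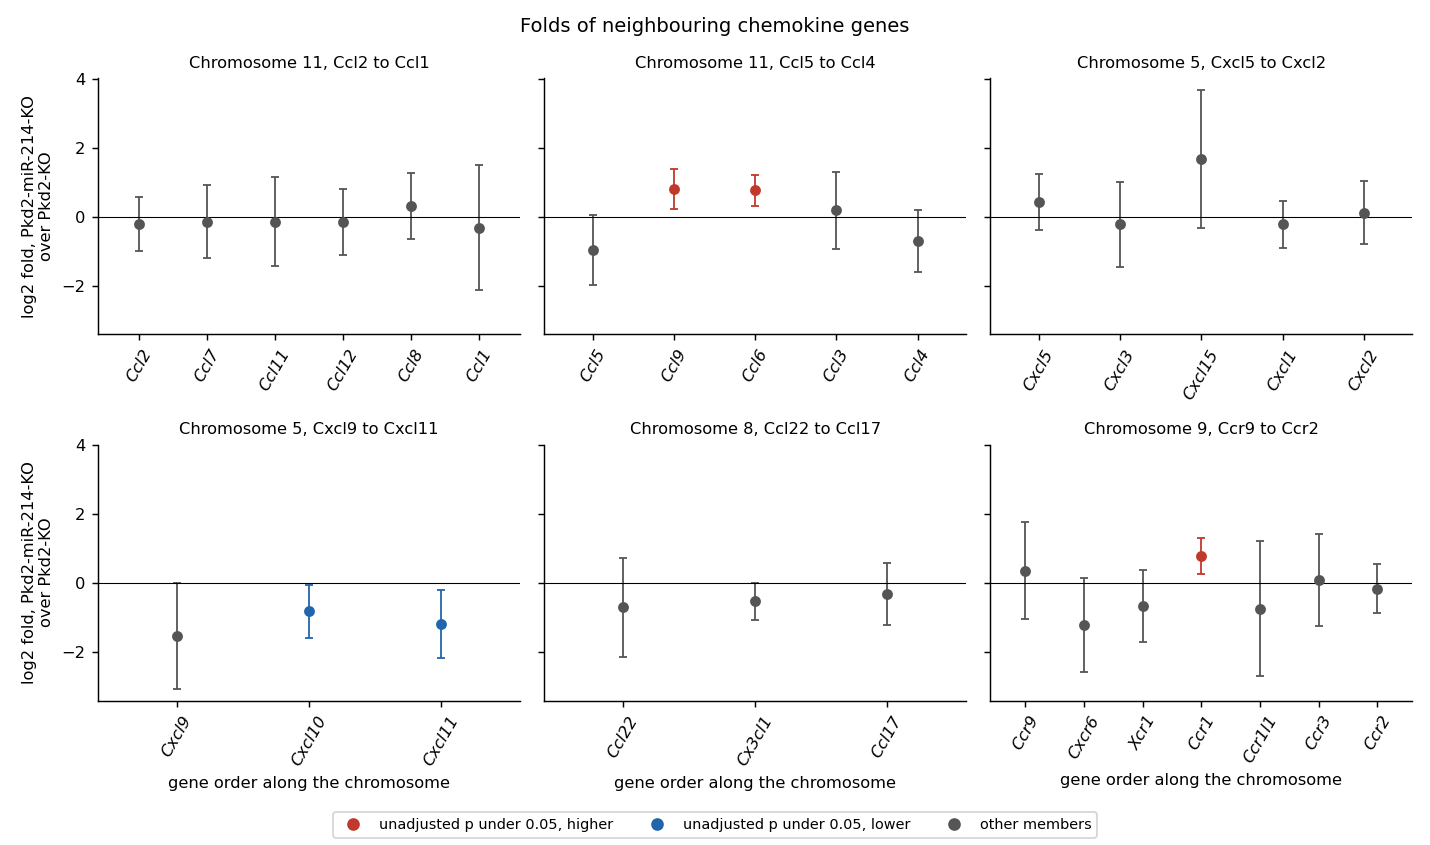
Log2 folds (Pkd2-miR-214-KO over Pkd2-KO, authors' deposited table) of genes in the 6 clusters with 3 or more members, in gene order along the chromosome, with approximate 95% intervals. Ccl9 and Ccl6 stand above 0 between neighbours on either side of 0, and Cxcl9, Cxcl10 and Cxcl11 all stand below it.

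The exons of 8 members overlap those of another annotated gene, and whether counting used strand is not given in the sources used here. Among them, Cxcl10 overlaps Art3 on the opposite strand, whose log2 fold was -0.08 in the authors' deposited table. Cxcl16 overlaps Zmynd15 (-0.21), Ccl27a overlaps Il11ra1 (0.09), Ccl25 overlaps Elavl1 (-0.05), Ccr9 overlaps Slc6a20a (-0.21) and Xcl1 overlaps Gm20743 (0.28) in the authors' deposited table. Elavl1 (5.77 log2 CPM), Il11ra1 (5.06) and Slc6a20a (4.07) had higher mean levels than Ccl25 (1.51), Ccl27a (1.78) and Ccr9 (-0.31). Art3, Zmynd15 and Gm20743 had lower mean levels than the members they overlap. The part of partner reads in the members' values and intervals was not tested. Reads of close relatives such as Ccr1 and Ccr1l1 may be shared between them, which makes their values uncertain.

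The promoters of 2 neighbours with positive and 2 with negative folds are shown because NF-kB and interferon signals, which induce many chemokines, act through known motifs. The 250 bases before each RefSeq start (GRCm38.p6) were searched on both strands for the NF-kB consensus and for GAAANNGAA, a core of the interferon response element. TTCNNNGAA, a STAT-like motif, was searched in the same way. A gene with several starts counted as matched if any of them had a match, so such genes had more sequence to match. Matches are in capitals, and matches that overlap form 1 stretch.
Ccl9 (chr11:83578637-83578886, minus strand): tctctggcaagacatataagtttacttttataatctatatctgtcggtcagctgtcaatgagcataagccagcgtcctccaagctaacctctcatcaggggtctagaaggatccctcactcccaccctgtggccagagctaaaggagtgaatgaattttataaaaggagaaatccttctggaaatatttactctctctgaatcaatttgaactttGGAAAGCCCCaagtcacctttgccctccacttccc
Ccl6 (chr11:83593088-83593337, minus strand): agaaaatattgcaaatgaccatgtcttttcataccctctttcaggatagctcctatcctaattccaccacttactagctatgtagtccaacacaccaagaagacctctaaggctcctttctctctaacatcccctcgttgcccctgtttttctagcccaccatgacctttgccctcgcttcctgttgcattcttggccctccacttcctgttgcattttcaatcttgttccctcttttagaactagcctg
Cxcl9 (chr5:92328080-92328329, minus strand): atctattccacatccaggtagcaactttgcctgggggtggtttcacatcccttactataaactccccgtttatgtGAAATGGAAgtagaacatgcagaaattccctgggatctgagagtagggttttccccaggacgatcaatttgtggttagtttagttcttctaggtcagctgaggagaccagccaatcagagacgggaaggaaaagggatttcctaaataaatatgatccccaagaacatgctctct
Cxcl10 (chr5:92348890-92349139, minus strand): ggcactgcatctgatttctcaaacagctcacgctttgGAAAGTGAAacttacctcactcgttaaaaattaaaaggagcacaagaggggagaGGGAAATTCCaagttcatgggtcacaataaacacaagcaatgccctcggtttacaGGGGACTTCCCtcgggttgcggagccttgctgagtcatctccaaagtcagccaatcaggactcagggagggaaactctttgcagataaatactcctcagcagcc

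The Cxcl10 window held GAAANNGAA 204 bases before the start and, closer to the start, NF-kB matches that ended 149, 94 and 93 bases before it, the last 2 overlapping. The Cxcl9 window held GAAANNGAA 166 bases before the start, the Ccl9 window an NF-kB match 25 bases before it, and the Ccl6 window no match to these letters. A promoter sequence was found for 36 members. The NF-kB consensus occurred in 10 of them (27.8%), against 10.3% of the 14279 genes of the table with a promoter sequence. The 10 were Ccl1, Ccl9, Ccl20, Cxcl1, Cxcl2, Cxcl3, Cxcl10, Ccr1, Ccr3 and Ccr6, whose log2 folds ran from -0.86 to 1.08 in the authors' deposited table. GAAANNGAA occurred in 7 (19.4%, Ccl1, Ccl3, Cxcl9, Cxcl10, Cxcl14, Ccr2 and Cxcr1), against 7.69% of the 14279 genes. TTCNNNGAA occurred in 4 (11.1%, Ccl17, Cxcl14, Ccr1l1 and Ccr6), against 7.54%. In Ccr6 the NF-kB and TTCNNNGAA matches lay before different starts. The NF-kB and interferon-type motifs were searched under 2 definitions each, and the ones above, which accept more sequences, were chosen after the results of the first had been seen. Under the first definitions NF-kB matches lay in 6 members (16.7%, Ccl9, Ccl20, Cxcl1, Cxcl2, Cxcl3 and Ccr3), against 1.80% of the 14279 genes. Interferon-type matches lay in 2 members (5.56%, Cxcl10 and Cxcl14), against 3.21%. The NF-kB matches in Ccl1, Cxcl10, Ccr1 and Ccr6 therefore rest on the second definitions. So do the GAAANNGAA matches in Ccl1, Ccl3, Cxcl9, Ccr2 and Cxcr1. Motif matches are a description of sequence and not of bound factors.

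Other genes of the pathway lay mostly close to 0. A list of 17 genes tied to chemokine induction held cytokines, transcription factors and NF-kB regulators, among them Nfkbia, which encodes an NF-kB inhibitor. Of these 13 had negative and 4, with Nfkbia, positive folds in the authors' deposited table. Their median was -0.16, and none had an unadjusted p under 0.05 in the authors' deposited table. Ifng, the gene of interferon-gamma, had a log2 fold of -1.22 ± 0.99 at a mean level of only -3.23 log2 CPM, in the authors' deposited table. Of 20 signalling genes below the receptors 7 had positive and 13 negative folds, with a median of -0.08, in the authors' deposited table. Rgs1, which switches off G protein signals of chemokine receptors in lymphocytes, was the one with an unadjusted p under 0.05 (2.29 ± 0.71, p = 0.00131, adjusted p = 0.232, in the authors' deposited table). A last list of 8 genes held atypical receptors, the chemerin receptor gene Cmklr1 and platelet chemokines. Of these 6 had positive folds, with a median of 0.31 and none at an unadjusted p under 0.05 in the authors' deposited table. Pf4, platelet factor 4, had the smallest p of the 8 (0.68 ± 0.40, p = 0.0914) in the authors' deposited table.

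**Figure D5:**
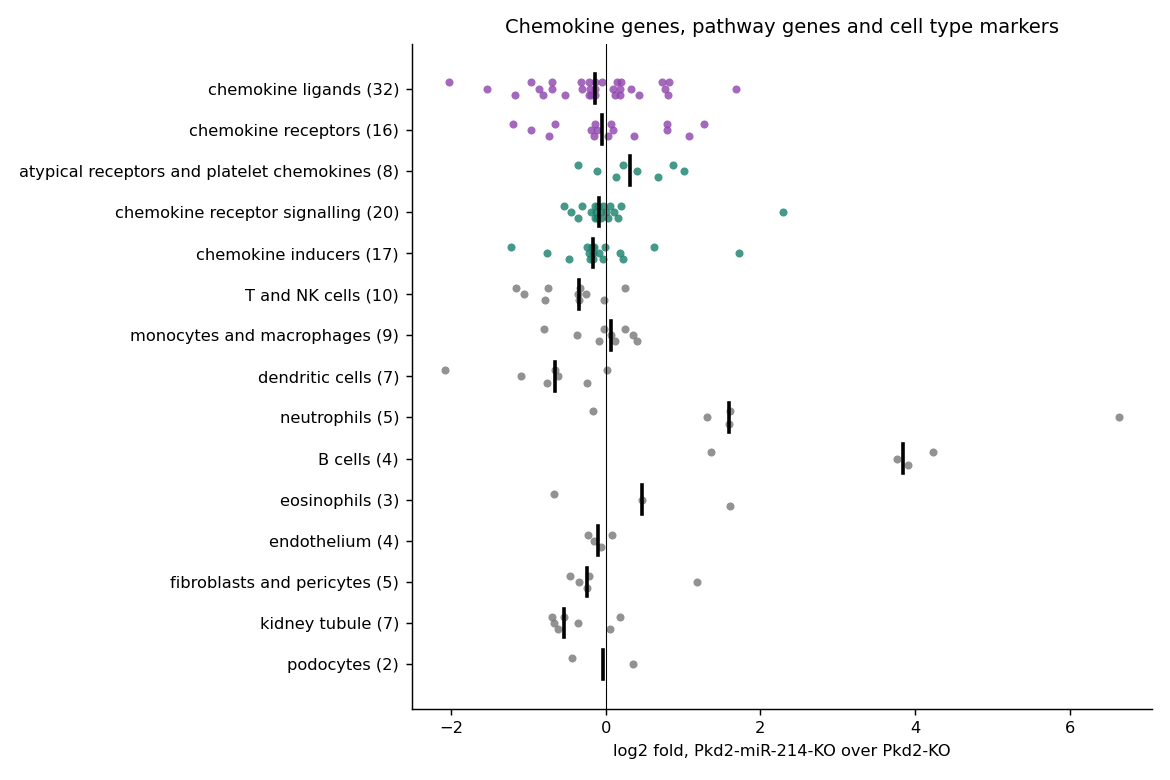
Log2 folds (Pkd2-miR-214-KO over Pkd2-KO, authors' deposited table) of chemokine ligands and receptors (purple), other pathway genes (green) and cell type markers (grey), 1 point per gene, with the median as a bar and the number of genes in brackets. The medians of B cell (3.84) and neutrophil markers (1.59) lie right of those of chemokine ligands (-0.14) and receptors (-0.04) and that of dendritic cell markers (-0.65) left of them, while single points of these groups overlap.

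For ligands made by resident kidney cells, those cells' markers are given. Of 7 tubule markers 5 had negative folds (median -0.54), and the 4 endothelial markers had a median of -0.10, with none at an unadjusted p under 0.05 in the authors' deposited table. Of 5 fibroblast and pericyte markers 4 had negative folds (median -0.24), and Dcn had 1.18 ± 0.31 (p = 0.000152, adjusted p = 0.102) in the authors' deposited table. Podocyte markers (2 genes, median -0.04) and eosinophil markers (3 genes, median 0.47) had none at an unadjusted p under 0.05 in the authors' deposited table. Their part in the fold of Cx3cl1, which tubule and endothelial cells make, was not tested.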

How the data were processed

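One deposited table of 20138 genes was used. Per the file headers and the submitters' processing notes, which name TopHat2 2.0.12, mm10 and edgeR, the authors gave each gene a log2 fold, a log2 CPM, a likelihood ratio (a score on 1 degree of freedom), a p-value and its adjusted value. The deposited p-value equalled the chi-square tail of the likelihood ratio within 6.25e-15, and the adjusted one the Benjamini-Hochberg value within 5.1e-14. The sources used here give no filter, normalization factor or counting mode, and name the RNA both as total and as polyadenylated. Per-library values were not analysed here, so depth is unknown and the authors' test replaced the planned test on counts. Such likelihood ratio tests are known to be liberal in small groups, and fitted folds of genes with few reads depend on the prior count.

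Levels per kilobase divide the mean CPM by the merged exon length in GENCODE M21, which may differ from the annotation used for counting. The members and lists were chosen with earlier results of these data known. Genes described singly were members with an unadjusted p under 0.05, the 5 ligands and 5 receptors of highest mean log2 CPM, the examined combinations and, from other lists, genes with an unadjusted p under 0.05 or the smallest p. The remaining genes are named beside them, and some genes that this rule names are not reported here. Promoter motif definitions were changed once after results had been seen, and both sets of counts are given. SE and adjustment steps were run on simulated data as a check of the code. The simulated likelihood ratios were built from the same SE formula. That check therefore cannot show whether the approximate SEs hold for the authors' fitted folds. Software was Python 3.11.15 with scipy 1.17.1, numpy 2.4.6, pandas 2.3.3 and, for figures, matplotlib 3.10.9.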

Additional observations from a re-analysis of the deposited data

How the results depend on the processing

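No member passed an adjusted p under 0.05 under any adjustment tried. Over the 14520 genes with a mean log2 CPM of at least 0 the smallest was 0.222. With Holm or Benjamini-Yekutieli over all genes it was 1 for each. Holm and Benjamini-Yekutieli values are never smaller than the reported ones, so neither could have added a member. Members with an unadjusted p under 0.05 were 4 higher and 3 lower. Under 0.01 these counts were 4 and 0, and with the 6 genes that the rule leaves out (chosen after seeing the data) 7 and 3. With a mean log2 CPM of at least 0 they were 4 and 2. The median log2 fold of members was -0.15 with that minimum and -0.13 with a minimum of 1, and their mean weighted by 1/SE squared was 0.03, against the reported -0.13. For receptors the weighted mean was 0.15 against the reported median of -0.04, so the sign of these medians rests on the summary chosen. Centring on genes with a mean log2 CPM of at least 0 changed the sign of 0 of 48 members. The median of those genes was -0.00219, smaller in size than every member's fold, so no sign could have changed. A 6-base miR-214-3p site was present in 33.3% of members, against 48.9% of all genes with a 3' UTR, and counting any annotated 3' UTR left the 7-base share at 12.5%. The first motif definitions were replaced by the reported ones after their results had been seen. Under them NF-kB matches lay in 6 of the 36 members with a promoter sequence in place of 10. Interferon-type matches lay in 2 in place of 7. Leaving out replicates, DESeq2, other size factors and count filters were not run, since no per-library value was analysed. No paired analysis was possible because the deposited table holds no value per animal and the labels pair none.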
